A study of Rattus norvegicus with 30 samples.

Results

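The genes described here are transcription factors that set or mark the identity of microglia, the resident macrophages of the brain: Sall1, Maf, Mef2c, Spi1, Irf8, Runx1, Cebpa, Cebpb and Mitf. They were chosen by gene symbol in the annotation of the array, with 1 probe set per gene, the one with the highest mean over the 30 arrays. Of the 9 factors, 8 had a probe set, out of 14506 genes named on the array. Mef2c was not listed in the annotation used here and has no values below. All 8 passed the filter on dim probe sets (a value above the array's 30th percentile on at least 3 arrays), as did 11675 genes in all, and none of the 8 lay at or below that percentile on any array.

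The study followed microglial expression from day 3 to day 14 after stroke in young and middle-aged male rats. Stroke was a 75 min occlusion of the middle cerebral artery, after which flow returned. The 10 groups had 3 samples each: at 12 months of age the ipsilateral (injured) and contralateral (opposite) hemisphere on day 14, the same pair on day 3, and sham, and at 3 months the same set. Expression was measured on Affymetrix Rat Gene 1.0 ST arrays, and a level below is a log2 value on 1 array. Every group shared sex and strain, but the strain is labelled in 2 ways, as Wistar Kyoto in the sample characteristics and as spontaneously hypertensive in the protocols. The method that separated the microglia and the side from which sham tissue came are not stated in the sources used here. No transgene or deletion is named. The sample codes tie the hemispheres of 12 animals together. Sham samples are not said to be separate animals. The p-values against sham rest on 1 estimate of the spread between samples, shared by all 10 groups. Its sham part may not be a spread between animals.

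Identity factors act in layers. PU.1 (encoded by Spi1) with its partner IRF8 opens the myeloid enhancers that all brain macrophages use, RUNX1 and the C/EBP proteins act with PU.1 in myeloid cells, and SALL1 and MEF2C belong to the programme that, in mice, tells microglia from other macrophages. MAF is a factor of mature macrophages that restrains their self-renewal in mice, and MITF, with its relatives TFEB, TFEC and TFE3, drives genes of the lysosome.

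The samples carried the defining markers of their label. Of 13 microglial markers (P2ry12, Tmem119, Cx3cr1 and others), 12 had a probe set, and none was dim in any group. Their mean log2 level lay between 10.2 and 10.9 on the 30 arrays. It was lower ipsilaterally than contralaterally at each age and day, without overlap. At 12 months it was 10.34 to 10.50 against 10.79 to 10.88 on day 14. On day 3 of that age it was 10.41 to 10.56 against 10.80 to 10.93. At 3 months it was 10.19 to 10.41 against 10.52 to 10.57 on day 14. On day 3 of that age it was 10.19 to 10.35 against 10.62 to 10.74. The neuronal list of 11 genes stayed between 4.27 and 4.79, and its genes Syt1, Nefm and Gad2 were dim in every group. The astrocyte list lay at 4.72 to 5.50 and the endothelial one at 5.48 to 5.98. Pericytes and smooth muscle lay at 5.50 to 5.82 and oligodendrocytes at 5.50 to 6.08, beside array medians of 5.06 to 5.24. No oligodendrocyte gene was dim in any group. The part of these cells in the changes of the 8 factors was not tested. Markers of monocytes and macrophages were mostly higher on the injured side on day 3. Those of neutrophils differed in direction between the comparisons. Both are given with the Sall1 results. Values were less spread out on the 12 arrays from 3-month rats with stroke (standard deviation within an array 1.79 to 1.93) than on the other 18 (1.94 to 2.05). The sample codes carry a number of unstated meaning, which differs between the 3-month groups of day 3, day 14 and sham and is another again for all 12-month samples. In comparisons of the 3-month samples with sham or between days, and of the ages in sham, code and group cannot be told apart, whereas the hemispheres of an age and day share it.

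Between hemispheres, Sall1 was lower on the injured side at both ages and on both days, Maf was lower in 3 of the 4 comparisons, and Mitf, Runx1 and Cebpb were higher in 2 each. Spi1, Irf8 and Cebpa were not called in any of the 4. A call means an adjusted p under 0.05 in limma with Benjamini-Hochberg adjustment over all tested genes. In 12-month rats on day 14, 3 of 8 factors were called higher and 2 lower, where 16.8% of all tested genes were called (10.9% higher and 5.94% lower). On day 3 none was higher and 2 were lower in these rats, where 28.7% of genes were called (18.7% higher and 10.0% lower). In 3-month rats 1 was higher and 2 were lower on day 14, where 20.3% of genes were called (13.2% higher and 7.09% lower). On day 3, 2 were higher and 1 was lower, where 20.4% of genes were called (11.5% higher and 8.95% lower). This made 13 calls in 32 tests, 6 higher and 7 lower. The calls on 3 or 5 of 8 factors lie above the share of all genes called, and the 2 at 12 months and day 3 do not.

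**Figure D1:**
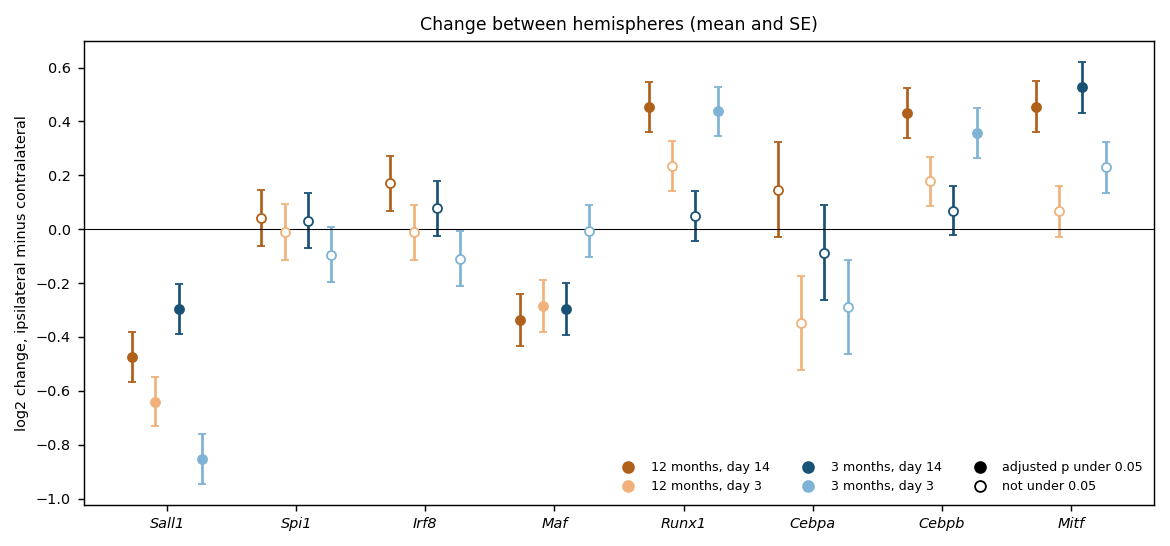
Log2 change between the ipsilateral and contralateral hemisphere for the 8 factors (x axis), as mean ± SE of the fitted difference, with 3 arrays per group. Filled points passed the adjusted p of 0.05 and open points did not; Sall1 is filled and below 0 in all 4 comparisons, and Spi1 lies near 0 throughout.

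Sall1 encodes a zinc finger factor that, among brain macrophages, is made mainly by microglia. On day 3 in 3-month rats its level was 9.43, 9.60 and 9.85 in the ipsilateral hemisphere, against 10.47, 10.42 and 10.55 in the contralateral one. On day 3 in 12-month rats the levels were 10.10, 10.23 and 10.16 ipsilaterally, against 10.80, 10.80 and 10.80 contralaterally. No ipsilateral array reached its contralateral group in either comparison. The fitted changes were -0.85 (SE 0.092, adjusted p = 5.8e-08) at 3 months and -0.64 (SE 0.092, adjusted p = 3.2e-06) at 12 months, folds of 0.554 and 0.642.

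By day 14 the gap was narrower in the 3-month rats. Sall1 stood at 10.21, 10.12 and 10.14 in their ipsilateral hemisphere, against 10.38, 10.57 and 10.40 contralaterally. The groups did not overlap, and the change was -0.30 (SE 0.092, adjusted p = 0.021). In the 12-month animals of day 14 the levels were 10.18, 10.27 and 10.51 ipsilaterally, against 10.86, 10.84 and 10.69 contralaterally, a change of -0.48 (SE 0.092, adjusted p = 0.00033). The call at 3 months and day 14 was lost with the animal as a fixed block (adjusted p = 0.057) and without contralateral replicate 2 (-0.24, adjusted p = 0.10), ipsilateral replicate 2 (-0.28, adjusted p = 0.067) or ipsilateral replicate 3 (-0.29, adjusted p = 0.058). It was also lost with median centring (-0.25, adjusted p = 0.059) and in fits of the compared arrays alone (adjusted p = 0.094) and of 1 age alone (adjusted p = 0.061), whereas quantile normalization gave -0.48 (adjusted p = 0.00023). The other 3 Sall1 calls were made in all 40 alternatives run.

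The difference of the 3-month hemisphere effects, day 14 minus day 3, was 0.56 for Sall1 (SE 0.13, adjusted p = 0.012). It was the only call among the 8 factors in the 4 tests of such differences. In that test 3.81% of all genes were called (2.57% higher and 1.24% lower). In the same test at 12 months, with 5.34% of genes called (1.75% higher and 3.59% lower), none of the 8 passed in limma, and Mitf alone had an unadjusted p under 0.05; Sall1 differed by 0.17 (SE 0.13, adjusted p = 0.61). The hemisphere effects of the 12-month and 3-month rats were also set against each other. On day 14, with 0.00857% of genes called (0% higher and 0.00857% lower), limma called none of the 8 factors, and unadjusted p-values under 0.05 were those of Runx1 (0.40, SE 0.13) and Cebpb (0.36, SE 0.13). On day 3, with 1.58% called (1.42% higher and 0.154% lower), none passed in limma and none had an unadjusted p under 0.05. The 3-month Sall1 call was lost in limma after quantile normalization (0.40, adjusted p = 0.073), in a fit of the compared arrays alone (adjusted p = 0.11) and in a fit of 1 age alone (adjusted p = 0.058).

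Sall1 was lower ipsilaterally in 12 of 12 animals, by a median of 0.61 and over a range of differences from -1.04 to -0.17. The plot of differences within animals shows no other factor with all 12 animals on one side.

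**Figure D2:**
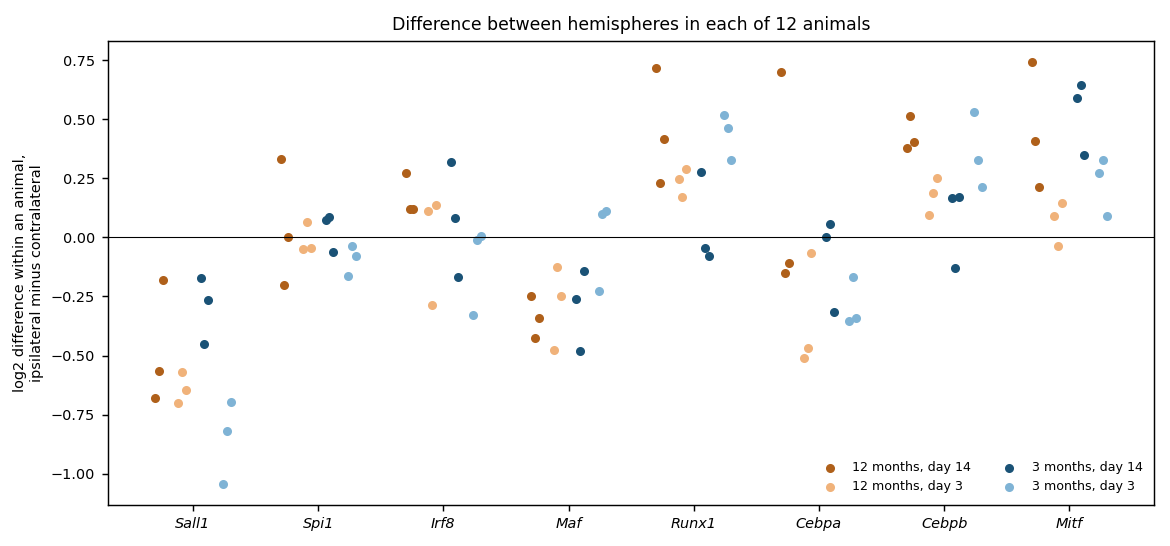
Log2 difference between the ipsilateral and the contralateral array of the same animal (y axis) for each factor (x axis), with 1 point per animal and 3 animals per age and day. All 12 Sall1 points lie below 0, while Spi1 has 5 points above 0 and 7 below.

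Genes linked to Sall1 and Mef2c in resting microglia fell along with it. Of 22 tested genes, 14 were lower and 1 was higher at 12 months and day 14, 19 were lower at 12 months and day 3, 13 at 3 months and day 14 and 17 at 3 months and day 3, with none higher in those 3. The median changes were -0.47, -0.54, -0.38 and -0.59 in the same order, beside medians of all genes between -0.015 and -0.009. Tmem119, a membrane protein of microglia, changed by -1.38, -1.37, -1.36 and -1.52 in that order (SE 0.18). Selplg, a selectin ligand, changed by -1.26 at 12 months and day 3, -1.08 at 3 months and day 14 and -1.59 at 3 months and day 3 (SE 0.14), and P2ry13, an ADP receptor, by -1.28 at 12 months and day 14 (SE 0.14). Smad3, which carries TGF-beta signals, was the gene that was higher (0.31, SE 0.091). A linked gene given here and below for some comparisons was among the 2 largest called rises or falls of its list there. It can also have been called in comparisons for which it is not given. Further values are given for Cd163, Mrc1 and Csf1r. Falls of resting-state markers were known from these arrays when the list was made, so these counts are not independent evidence.

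Markers of monocytes and macrophages were higher in the ipsilateral hemisphere in the same comparisons. Of 14 tested genes, 12 were higher and none lower at 12 months and day 3, and 14 and none at 3 months and day 3, against 7 higher and 1 lower at 12 months and day 14 and 6 higher and 1 lower at 3 months and day 14. The mean level of the list was 7.30 to 7.52 ipsilaterally and 5.83 to 6.12 contralaterally at 12 months and day 3, and 6.75 to 8.17 ipsilaterally and 5.72 to 5.90 contralaterally at 3 months and day 3. On day 14 it was 6.36 to 6.77 ipsilaterally and 5.97 to 6.11 contralaterally at 12 months, and 6.51 to 6.67 ipsilaterally and 5.87 to 5.93 contralaterally at 3 months. In sham it was 5.75 to 5.82 at 12 months and 5.82 to 5.93 at 3 months. Ccr1 and Ly6c were dim on the contralateral side in all 4 comparisons and in sham. Ccr2, a chemokine receptor of blood monocytes, was called between hemispheres at 3 months and day 3 (0.66, SE 0.22, adjusted p = 0.032) and in none of the other 3 comparisons. Markers of border-associated macrophages were higher for 6 of 6 tested genes at 12 months and day 3 and 5 of 6 at 3 months and day 3, and for 2 of 6 on day 14 at each age, with 1 lower. Their mean level was 6.67 to 7.22 ipsilaterally and 5.63 to 5.89 contralaterally at 12 months and day 3, and 7.03 to 7.29 ipsilaterally and 5.84 to 6.37 contralaterally at 3 months and day 3. On day 14 of the 12-month rats it was 5.38 to 6.34 ipsilaterally and 5.38 to 5.84 contralaterally. Of 11 neutrophil markers, 4 were higher at 3 months and day 3, where the list mean was 5.98 to 6.64 ipsilaterally and 5.36 to 5.85 contralaterally, and 1 was higher at 12 months and day 3 (5.68 to 6.04 ipsilaterally and 5.46 to 5.59 contralaterally). On day 14, 1 was lower at 12 months (5.10 to 5.41 ipsilaterally and 5.54 to 5.90 contralaterally), and 1 was higher and 3 lower at 3 months (5.42 to 5.64 ipsilaterally and 5.55 to 6.71 contralaterally). In sham the neutrophil mean was 5.51 to 5.72 at 12 months and 5.43 to 6.30 at 3 months, and Cxcr2 was dim in every group but the ipsilateral ones of day 3. Within the ipsilateral group at 3 months and day 3, the arrays with Sall1 at 9.43, 9.60 and 9.85 had monocyte list means of 8.17, 7.38 and 6.75. At 12 months and day 3, ipsilateral arrays with Sall1 at 10.10, 10.23 and 10.16 had means of 7.30, 7.31 and 7.52. At 12 months and day 14, those at 10.18, 10.27 and 10.51 had 6.77, 6.36 and 6.44. At 3 months and day 14, those at 10.21, 10.12 and 10.14 had 6.54, 6.67 and 6.51. Only the first of these 4 groups ran in strictly opposite order. In bulk samples, fewer cells of a type and less RNA per cell cannot be told apart, and the part of other macrophages and of neutrophils in the changes of the 8 factors was not tested.

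Maf encodes a basic leucine zipper factor of macrophages. For 12-month rats on day 14 its level was 8.91, 8.81 and 8.89 ipsilaterally, against 9.15, 9.23 and 9.23 contralaterally. In the 3-month animals of day 14 it was 8.48, 8.42 and 8.67 ipsilaterally, against 8.74, 8.90 and 8.81 contralaterally. Neither pair of groups overlapped. The changes were -0.34 (SE 0.096, adjusted p = 0.013) and -0.29 (SE 0.096, adjusted p = 0.028).

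At 12 months and day 3 Maf was 8.93, 9.02 and 8.88 ipsilaterally, against 9.41, 9.14 and 9.13 contralaterally, again without overlap, a change of -0.28 (SE 0.096, adjusted p = 0.026). For 3-month rats on day 3 the levels were 8.72, 8.79 and 8.96 ipsilaterally, against 8.95, 8.69 and 8.85 contralaterally. Here the groups overlapped and the change was -0.0058 (95% interval -0.20 to 0.19). Maf was lower ipsilaterally in 10 of 12 animals, with the 2 exceptions in that group. The test of the hemisphere effect between days at 3 months gave -0.29 (SE 0.14, adjusted p = 0.26).

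Of 40 alternatives, the Maf call of 12 months and day 14 was made in 39, that of 12 months and day 3 in 36 and that of 3 months and day 14 in 33, as many as Sall1 in that comparison. That of 12 months and day 14 was lost without ipsilateral replicate 2 (-0.31, adjusted p = 0.055). That of 12 months and day 3 was lost without contralateral replicate 1 (-0.19, adjusted p = 0.18), ipsilateral replicate 1 (-0.28, adjusted p = 0.067) or ipsilateral replicate 3 (-0.25, adjusted p = 0.10), and that of 3 months and day 14 without contralateral replicate 2 (-0.25, adjusted p = 0.10), contralateral replicate 3 (-0.30, adjusted p = 0.062), ipsilateral replicate 1 (-0.27, adjusted p = 0.092) or ipsilateral replicate 2 (-0.24, adjusted p = 0.12). Median centring also ended the calls of 12 months and day 3 (-0.24, adjusted p = 0.077) and of 3 months and day 14 (-0.25, adjusted p = 0.078). That of 3 months and day 14 was lost as well in fits of the compared arrays alone (adjusted p = 0.11) and of 1 age alone (adjusted p = 0.059).

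Of 14 tested genes linked to MAF in macrophages, 1 was higher and 4 were lower at 12 months and day 14, 5 and 3 at 12 months and day 3, 2 and 3 at 3 months and day 14, and 4 and 2 at 3 months and day 3. Folr2, a folate receptor of tissue macrophages, was higher in all 4 (1.15, 2.31, 0.73 and 1.90 in that order, SE 0.25). Lyve1, a hyaluronan receptor of border macrophages, was lower on day 14 at 12 months (-1.38, SE 0.28) and 3 months (-1.37, SE 0.28). Cd163, a haemoglobin scavenger receptor, was higher on day 3 at 12 months (2.23, SE 0.26) and 3 months (1.53, SE 0.26). Mrc1, the mannose receptor, was likewise higher on day 3 at 12 months (1.92, SE 0.34) and 3 months (1.87, SE 0.34). Neither Cd163 nor Mrc1 was called on day 14. Selenop, a selenium carrier, was higher at 3 months and day 14 (0.43, SE 0.13). Csf1r, the receptor on which microglia depend, was lower in all 4 comparisons (-0.35, -0.26, -0.22 and -0.36 in the order given for Folr2, SE 0.076). Il10, an anti-inflammatory cytokine whose ipsilateral arrays were dim, had a change of -0.205 or lower at 12 months and day 3. Tlr4 was lower on day 14 at 12 months and 3 months and at 3 months and day 3 (-0.36, SE 0.086). This list shares Folr2, Lyve1, Cd163, Mrc1 and Stab1 with the border macrophage markers.

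Spi1, which encodes PU.1, was called in none of the 21 comparisons of the values as deposited. Its levels at 3 months and day 3 were 8.82, 8.62 and 8.82 ipsilaterally, against 8.98, 8.66 and 8.90 contralaterally. On day 3 in 12-month rats they were 9.14, 9.15 and 9.11 ipsilaterally, against 9.19, 9.09 and 9.15 contralaterally. The groups overlapped in all 4 hemisphere comparisons, with changes of -0.094 and -0.0097 in these 2, 0.042 at 12 months and day 14 and 0.032 at 3 months and day 14. The SE was 0.10, and the 95% interval at 3 months and day 3 ran from -0.31 to 0.12. Over the 10 groups the means of Spi1 spanned 0.43, from 8.71 to 9.14, and every pair of neighbours in that order overlapped.

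Irf8, the interferon regulatory factor that partners PU.1, was not called between hemispheres either. On day 14 it was 9.30, 9.42 and 9.49 ipsilaterally at 12 months, against 9.03, 9.30 and 9.36 contralaterally, and 9.08, 9.12 and 8.90 ipsilaterally at 3 months, against 8.76, 9.03 and 9.06 contralaterally. Both pairs overlapped, with changes of 0.17 (SE 0.10, adjusted p = 0.30) and 0.078 (SE 0.10, adjusted p = 0.65). On day 3 the changes were -0.012 at 12 months and -0.11 at 3 months. Irf8 was higher ipsilaterally in 8 of 12 animals.

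Genes linked to PU.1 and IRF8 went both ways. Of 23 tested, 6 were higher and 5 lower at 12 months and day 14, 6 and 6 at 12 months and day 3, 6 and 3 at 3 months and day 14, and 7 and 6 at 3 months and day 3. Cd14, a co-receptor for lipopolysaccharide, was higher by 2.78, 3.08, 2.70 and 2.94 in that order (SE 0.21), and Cd68, a lysosomal glycoprotein, by 1.91, 1.34, 2.05 and 1.59 (SE 0.12). Ctss, a cysteine protease, was lower on day 3 at 12 months (-0.52, SE 0.087) and 3 months (-0.52, SE 0.087). Tlr4, the lipopolysaccharide receptor, was lower on day 14 at 12 months (-0.58, SE 0.086) and 3 months (-0.39, SE 0.086). Lyn, a Src-family kinase, was lower on day 14 at 12 months (-0.45, SE 0.087) and 3 months (-0.35, SE 0.087). Tlr9, a sensor of DNA, was lower at 12 months and day 3 (-0.37, SE 0.097), and Il18, a cytokine, at 3 months and day 3 (-0.39, SE 0.098).

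Runx1 encodes a runt-domain factor needed for blood stem cells and expressed in embryonic and activated microglia of mice. In the 12-month animals of day 14 its level was 8.81, 8.63 and 8.57 ipsilaterally, against 8.09, 8.40 and 8.15 contralaterally. On day 3 in 3-month rats it was 8.59, 8.46 and 8.54 ipsilaterally, against 8.074, 7.997 and 8.213 contralaterally. In both, each ipsilateral array lay above each contralateral one. The changes were 0.46 (SE 0.092, adjusted p = 0.00056) and 0.44 (SE 0.092, adjusted p = 0.00071).

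At 12 months and day 3 Runx1 was 8.75, 8.71 and 8.80 ipsilaterally, against 8.50, 8.54 and 8.51 contralaterally. The groups did not overlap, the change was 0.24 (SE 0.092) and the adjusted p was 0.055, or 0.045 with the animal as a random block. After quantile normalization the change was 0.13 (adjusted p = 0.31), and it was called in 9 of 40 alternatives. In the 3-month animals of day 14 it was 8.19, 8.22 and 8.12 ipsilaterally, against 7.91, 8.27 and 8.20 contralaterally, with overlap and a change of 0.050 (95% interval -0.14 to 0.24). Runx1 was higher ipsilaterally in 10 of 12 animals. The test between days at 3 months gave -0.39 (SE 0.13, adjusted p = 0.098), and without contralateral replicate 1 of day 14 it passed (-0.49, adjusted p = 0.023). That array also had the highest astrocyte list mean of its group, 5.50 against 4.74 and 5.05 in replicates 2 and 3, and the highest neuronal one, 4.79 against 4.51 and 4.45; their part in the result was not tested.

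Cebpb encodes the inflammation-responsive member of the C/EBP family. For 12-month rats on day 14 it was 7.59, 7.64 and 7.54 ipsilaterally, against 7.21, 7.13 and 7.13 contralaterally. For 3-month rats on day 3 it was 7.69, 7.50 and 7.58 ipsilaterally, against 7.15, 7.18 and 7.36 contralaterally. All ipsilateral arrays lay above all contralateral ones in both. The changes were 0.43 (SE 0.092, adjusted p = 0.00095) and 0.36 (SE 0.092, adjusted p = 0.0047), with 0.18 at 12 months and day 3 (adjusted p = 0.16) and 0.069 at 3 months and day 14 (adjusted p = 0.65). Cebpb was higher ipsilaterally in 11 of 12 animals. The calls of Runx1 and Cebpb thus stood in the same 2 comparisons, and both were made in all 40 alternatives run for each.

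Cebpa, the C/EBP member that drives early myeloid differentiation, passed in no hemisphere comparison. On day 3 in 12-month rats it was 6.64, 6.89 and 7.06 ipsilaterally, against 7.16, 7.36 and 7.13 contralaterally, without overlap, a change of -0.35 (SE 0.18, adjusted p = 0.14). In the 12-month animals of day 14 it was 7.44, 7.46 and 7.66 ipsilaterally, against 6.74, 7.61 and 7.76 contralaterally. Contralateral replicate 1 stood apart there, also for Spi1 (8.68 against 9.16 and 9.01), and the Cebpa change was 0.15 with it and -0.17 without it (adjusted p = 0.66 and 0.55). Without that same array the 12-month change on day 3, which does not use it, passed with its value unmoved (adjusted p = 0.046). Cebpa was lower ipsilaterally in 9 of 12 animals.

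C/EBP-linked genes were likewise divided. Of 18 tested, 3 were higher and 3 lower at 12 months and day 14, 5 and 6 at 12 months and day 3, 3 and 4 at 3 months and day 14, and 7 and 3 at 3 months and day 3. Il1b, an inflammatory cytokine, was higher in all 4 (1.77, 1.12, 1.23 and 2.05 in that order, SE 0.25). Il6, another cytokine, was lower in all 4 (-2.17, -2.01, -1.79 and -1.81, SE 0.19). Tnf was lower at 12 months on day 14 (-1.11, SE 0.16) and day 3 (-0.77, SE 0.16) and at 3 months on day 3 (-0.64, SE 0.16). Lcn2, an iron-binding protein also on the neutrophil list, was lower at 3 months and day 14 (-1.01, SE 0.35).

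Mitf encodes the factor that, with TFEB, TFEC and TFE3, binds lysosomal gene promoters. On day 14 in 3-month rats its level was 6.70, 6.70 and 6.55 ipsilaterally, against 6.11, 6.06 and 6.21 contralaterally. For 12-month rats on day 14 it was 6.81, 6.52 and 6.63 ipsilaterally, against 6.06, 6.12 and 6.42 contralaterally. Neither pair overlapped. The changes were 0.53 (SE 0.095, adjusted p = 0.00013) and 0.45 (SE 0.095, adjusted p = 0.00075), folds of 1.44 and 1.37, and both were called in all 40 alternatives.

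On day 3 Mitf was 6.40, 6.33 and 6.49 ipsilaterally at 12 months, against 6.31, 6.37 and 6.35 contralaterally, and 6.21, 6.20 and 5.90 ipsilaterally at 3 months, against 5.94, 5.88 and 5.81 contralaterally. Both pairs overlapped. The changes were 0.066 (SE 0.095, adjusted p = 0.66) and 0.23 (SE 0.095, adjusted p = 0.089), and ipsilateral replicate 3 was the low one at 3 months. Without it the 3-month change was 0.33 (adjusted p = 0.016). The hemisphere effect of day 14 minus day 3 was 0.39 at 12 months (SE 0.13, adjusted p = 0.096) and 0.30 at 3 months (SE 0.13, adjusted p = 0.24). Without contralateral replicate 3 of day 14, the 12-month value was 0.50 (adjusted p = 0.024).

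Lysosome genes linked to MITF and its relatives were mostly higher on day 14. Of 20 tested, 13 were higher and 1 lower at 12 months and day 14, 13 and none at 3 months and day 14, 7 and 2 at 12 months and day 3, and 5 and 1 at 3 months and day 3. The medians were 0.34, 0.49, 0.14 and 0.14 in that order. Gpnmb, a glycoprotein of phagocytes, was higher by 3.08, 3.40, 3.54 and 3.66 in the same order (SE 0.21), and Acp5, an acid phosphatase, by 0.94 and 1.36 on day 14 and by 0.74 at 3 months and day 3 (SE 0.19). Lamp2, a lysosomal membrane protein, was lower at 12 months on day 14 (-0.34, SE 0.078) and day 3 (-0.45, SE 0.078) and at 3 months on day 3 (-0.51, SE 0.078). Atp6v0d1, a proton pump subunit, was higher (0.72, SE 0.086) and Lamp1, a lysosomal membrane protein, lower (-0.21, SE 0.074) at 12 months and day 3. Gpnmb was called higher on both days, and Mitf on day 14.

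The promoters of factors that were higher together at 12 months and day 14 were read from RefSeq's GRCr8 promoter table, which gives 1 start per gene and held 6 of the 9 factors (Cebpa, Cebpb, Irf8, Maf, Mitf and Runx1). The 250 bases before each start were searched on both strands for 6 motifs: GAGGAA (PU.1 core, in 23.2% of 27457 promoters), TGTGGT (RUNX, 14.1%), CACGTG (MITF and TFE E-box, 5.79%), TTGCNNAA (C/EBP, 9.2%), the MEF2 site (3.43%) and TGCTGA (MAF, 15.2%). Mitf held 3 of them and the other 5 factors held none. For Maf and Runx1 the whole stretch searched lies within the annotated gene. The Mitf stretch (chr4:131965490-131965675, plus strand) and that of Cebpb (chr3:176816755-176817004, plus strand) are shown because both rose there and differ in what they hold. For Mitf only the first 186 of the 250 bases are shown, as the rest lies within the annotated gene. Positions below are counted back from the end of all 250. Capitals mark motif matches, and the sequences run 5′ to 3′.
Mitf: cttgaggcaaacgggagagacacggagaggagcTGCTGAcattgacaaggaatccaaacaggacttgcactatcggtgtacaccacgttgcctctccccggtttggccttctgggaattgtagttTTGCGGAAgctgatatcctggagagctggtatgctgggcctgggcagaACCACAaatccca
Cebpb: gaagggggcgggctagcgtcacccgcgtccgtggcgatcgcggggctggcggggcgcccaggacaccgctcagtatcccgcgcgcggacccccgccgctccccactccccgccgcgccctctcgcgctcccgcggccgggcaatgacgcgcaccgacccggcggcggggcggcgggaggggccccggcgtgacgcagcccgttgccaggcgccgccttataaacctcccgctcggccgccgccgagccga
In Mitf the MAF match began 217 bases before the start, the C/EBP match 125 and the RUNX match, on the reverse strand, 77. The matches do not overlap each other. Over the 250 bases the share of G and C was 60.0% in Mitf and 80.0% in Cebpb, beside a median of 52% over all promoters. A match is a string of letters and was not tested for binding.

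Relatives and partners of the 8 factors, a list of 33 genes of which 30 were tested, were counted in the same comparisons, beside the shares of all genes given above. On day 14 in 12-month rats, 6 were higher and 2 lower, at 12 months and day 3, 4 and 10, at 3 months and day 14, 5 and 1, and at 3 months and day 3, 5 and 8. Tfec, a relative of Mitf, was higher in all 4 comparisons. Its contralateral arrays were dim, so its change is a bound of at least 1.19 at 12 months and day 14, 1.23 at 12 months and day 3, 0.99 at 3 months and day 14 and 1.41 at 3 months and day 3.

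Irf7, which amplifies type I interferon responses, was higher on day 14 at 12 months (1.22, SE 0.14) and 3 months (1.32, SE 0.14) and on day 3 at 3 months (0.49, SE 0.14), while Irf8 was not called. Runx3, a paralog of Runx1, was called higher at 12 months on day 14 (0.49) and day 3 (0.57) and at 3 months on day 3 (0.57, SE 0.13). Ets2, an ETS-family relative of PU.1, was called higher at 12 months on day 3 (0.56) and at 3 months on day 14 (0.55) and day 3 (0.68, SE 0.11). Ddit3, a stress-induced C/EBP relative also called CHOP, was lower in all 4 (-0.58, -0.82, -0.54 and -1.01 in the order above, SE 0.11). Irf4 was lower on day 3 at 12 months (-0.57, SE 0.12) and 3 months (-0.64, SE 0.12), and Mef2a, a relative of the unmeasured Mef2c, at 12 months on day 14 (-0.23) and day 3 (-0.29) and at 3 months on day 3 (-0.42, SE 0.074). Mef2d, another Mef2c relative, was called higher at 12 months and day 14 (0.53, SE 0.12) and in no other of these comparisons. Mef2b was called in none.

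**Figure D3:**
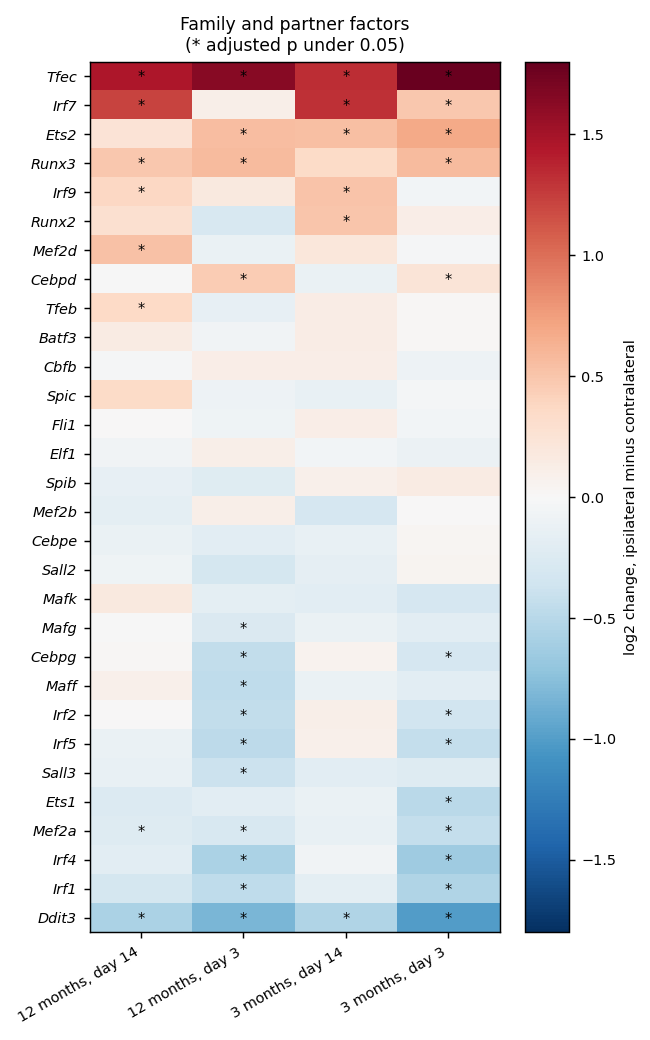
Log2 change between the ipsilateral and contralateral hemisphere (colour) of 30 family and partner factors (rows, ordered by their mean change) in 4 comparisons (columns), with asterisks at an adjusted p under 0.05. Tfec is at the top and Ddit3 at the bottom, each with 4 asterisks.

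Against sham, Sall1 was again lower ipsilaterally in all 4 comparisons and Maf in 3. In 12-month rats, 3 factors were higher and 2 lower on day 14, where 20.0% of genes were called (11.9% higher and 8.09% lower). On day 3, 2 were higher and 4 lower, where 37.1% were called (22.7% higher and 14.3% lower). In 3-month rats, 1 was higher and 2 lower on day 14, where 34.4% were called (11.0% higher and 23.4% lower). On day 3, 1 was higher and 2 lower, where 56.8% were called (20.9% higher and 35.9% lower). These comparisons share their sham samples within an age. The shares of 5 of 8 and 6 of 8 called at 12 months lie above the share of all genes, and those of 3 of 8 at 3 months near or below it. Sham samples gave Sall1 levels of 10.95, 10.90 and 10.88 at 12 months and 10.80, 10.83 and 10.88 at 3 months, above every ipsilateral array. The Sall1 changes were -0.59 (12 months, day 14), -0.75 (12 months, day 3), -0.68 (3 months, day 14) and -1.21 (3 months, day 3), each with SE 0.092 and an adjusted p of at most 1.5e-05.

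Other calls against sham were smaller. Maf was lower ipsilaterally by -0.45 (12 months, day 14), -0.38 (12 months, day 3) and -0.49 (3 months, day 14). Cebpa (-0.55, SE 0.18) and Irf8 (-0.29, SE 0.10) were lower at 12 months and day 3, as was Irf8 at 3 months and day 3 (-0.31, SE 0.10). Runx1 was higher at 12 months and day 14 (0.30), 12 months and day 3 (0.38) and 3 months and day 3 (0.27), Cebpb at 12 months on day 14 (0.43) and day 3 (0.23), and Mitf on day 14 at 12 months (0.34) and 3 months (0.53). After quantile normalization over the 30 arrays, the Irf8 change at 3 months and day 3 turned to 0.027 (adjusted p = 0.85), and Cebpb at 3 months and day 3, 0.17 as deposited (adjusted p = 0.11), became 0.51 (adjusted p = 3.2e-05). That scaling ended the calls of Runx1 at 12 months and day 14 (0.23, adjusted p = 0.062) and Cebpb at 12 months and day 3 (0.13, adjusted p = 0.29). Under it Maf at 3 months and day 14 was at -0.28, Runx1 at 0.25 on day 3 at 12 months and at 0.61 on day 3 at 3 months, and Irf8 at -0.44 on day 3 at 12 months, all still called. Median centring ended the calls of Irf8 at 12 months and day 3 (-0.24, adjusted p = 0.073) and Runx1 at 3 months and day 3 (0.21, adjusted p = 0.065). Single arrays decided several of these calls: Irf8 at 12 months and day 3 was lost without sham replicate 1 (-0.26, adjusted p = 0.087), sham replicate 2 (-0.28, adjusted p = 0.069) or ipsilateral replicate 2 (-0.21, adjusted p = 0.15), Cebpa there without sham replicate 1 (-0.41, adjusted p = 0.10) or ipsilateral replicate 1 (-0.44, adjusted p = 0.086), Mitf at 12 months and day 14 without ipsilateral replicate 1 (0.26, adjusted p = 0.095), Runx1 there without sham replicate 3 (0.27, adjusted p = 0.074) or ipsilateral replicate 1 (0.23, adjusted p = 0.15), and Runx1 at 3 months and day 3 without sham replicate 2 (0.23, adjusted p = 0.062) or ipsilateral replicate 1 (0.24, adjusted p = 0.050). Cebpb at 12 months and day 3 lay at the threshold (adjusted p = 0.046) and was lost without sham replicate 2 (0.16, adjusted p = 0.25) or ipsilateral replicate 1 (0.25, adjusted p = 0.066), 2 (0.22, adjusted p = 0.11) or 3 (0.23, adjusted p = 0.097), and also without any 1 of 4 arrays of other groups, with its value unmoved.

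In the contralateral hemisphere, the comparison with sham gave calls at 3 months only. In 12-month rats limma called none of the 8 factors on day 14, where 0.00857% of genes were called (0.00857% higher and 0% lower), and none had an unadjusted p under 0.05. It called none on day 3, where 1.28% were called (1.16% higher and 0.128% lower), and Irf8 alone had an unadjusted p under 0.05 (-0.28, SE 0.10). In 3-month rats Sall1 was lower on day 14, where 38.7% of genes were called (10.4% higher and 28.4% lower). On day 3 Sall1 and Mitf were lower, where 51.6% were called (14.4% higher and 37.2% lower). Sall1 was 10.38, 10.57 and 10.40 contralaterally on day 14 and 10.47, 10.42 and 10.55 on day 3, against 10.80, 10.83 and 10.88 in sham, without overlap. Its changes were -0.39 (SE 0.092, adjusted p = 0.0016) and -0.35 (SE 0.092, adjusted p = 0.0020), and that of Mitf was -0.25 (SE 0.095, adjusted p = 0.029).

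These 3-month changes stood on arrays with a narrower spread of values. Among the 8848 genes brighter than the array median on at least 3 arrays, the median change from sham was -0.25 contralaterally on day 3 and -0.16 on day 14, and -0.21 and -0.092 ipsilaterally. The contralateral medians of the 8 factors, -0.18 and -0.17, lay near these. After quantile normalization, which gives each array 1 distribution, Sall1 was at -0.16 on day 14 (adjusted p = 0.20) and -0.15 on day 3 (adjusted p = 0.18), Mitf at -0.15 on day 3 (adjusted p = 0.21), and on day 3 the called factors were Spi1 (0.31, adjusted p = 0.0058, and -0.061 as deposited) and Runx1 (0.23, adjusted p = 0.041, and -0.16 as deposited), both higher. So the contralateral calls were 0 higher and 3 lower as deposited, and 2 higher and 0 lower after that scaling. Median centring went the other way, with 0 higher and 9 lower. Under it Sall1 was at -0.46 on day 14 (adjusted p = 0.00023) and -0.42 on day 3 (adjusted p = 0.00038). Mitf on day 3 was at -0.32 (adjusted p = 0.0083). As deposited, the Mitf call on day 3 was also lost without sham replicate 1 (-0.24, adjusted p = 0.072) or 2 (-0.24, adjusted p = 0.070), or contralateral replicate 2 (-0.25, adjusted p = 0.061) or 3 (-0.22, adjusted p = 0.096).

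**Figure D4:**
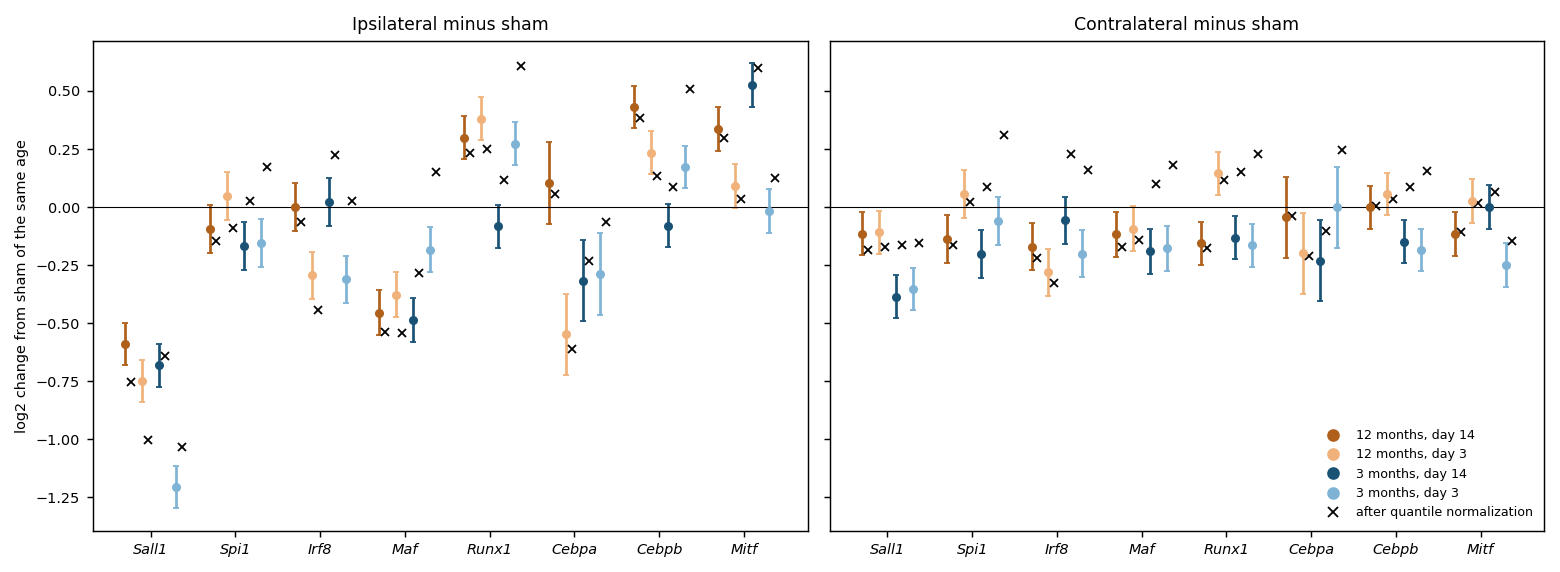
Log2 change from sham of the same age (y axis, mean ± SE of the fitted difference, 3 arrays per group) for the 8 factors, in the ipsilateral hemisphere on the left and the contralateral one on the right. Crosses give the same change after quantile normalization; for Sall1 they lie at or below -0.64 on the left and between -0.18 and -0.15 on the right.

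Between the days, factors were called in the injured hemisphere and none in the opposite one, where the shares of all genes called were also lower. At 12 months, Irf8 and Cebpa were higher ipsilaterally on day 14 than on day 3 and none was lower, where 20.6% of genes were called (6.53% higher and 14.1% lower). At 3 months, Sall1, Irf8 and Mitf were higher on day 14 and Maf, Runx1 and Cebpb lower, where 29.6% were called (22.0% higher and 7.51% lower). The calls at 12 months, on 2 of 8 factors, lie near the share of all genes called, and those at 3 months above it. In the contralateral hemisphere limma called none of the 8 at 12 months, where 1.06% of genes were called (0.137% higher and 0.925% lower), and Runx1 alone had an unadjusted p under 0.05 (-0.30, SE 0.092). It called none at 3 months, where 10.1% were called (8.31% higher and 1.84% lower), and Mitf alone had an unadjusted p under 0.05 (0.25, SE 0.095).

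At 3 months Sall1 was 10.21, 10.12 and 10.14 ipsilaterally on day 14, against 9.43, 9.60 and 9.85 on day 3, a change of 0.52 (SE 0.092, adjusted p = 7.5e-05). Mitf was 6.70, 6.70 and 6.55 on day 14, against 6.21, 6.20 and 5.90 on day 3, a change of 0.54 (SE 0.095, adjusted p = 6.6e-05). Runx1 was 8.19, 8.22 and 8.12 on day 14, against 8.59, 8.46 and 8.54 on day 3, a change of -0.36 (SE 0.092, adjusted p = 0.0041). None of these 3 pairs of groups overlapped, and the 3 calls were made under every alternative run. Irf8 (0.33, SE 0.10, adjusted p = 0.014), Maf (-0.30, SE 0.096, adjusted p = 0.018) and Cebpb (-0.25, SE 0.092, adjusted p = 0.037) were each lost without a single array: Irf8 without ipsilateral replicate 1 (0.31, adjusted p = 0.057) or 2 (0.29, adjusted p = 0.057) of day 14, Maf without replicate 1 (-0.28, adjusted p = 0.067) or 2 (-0.25, adjusted p = 0.080) of day 14 or 3 of day 3 (-0.23, adjusted p = 0.11), and Cebpb without replicate 1 (-0.25, adjusted p = 0.083) or 2 (-0.18, adjusted p = 0.18) of day 14 or 1 (-0.20, adjusted p = 0.14) or 3 (-0.26, adjusted p = 0.068) of day 3. Quantile normalization ended the Irf8 call (0.20, adjusted p = 0.16) and gave Cebpb a change of -0.42, and median centring ended the Cebpb call (-0.22, adjusted p = 0.082). In fits of the compared arrays alone Maf (adjusted p = 0.069) and Cebpb (adjusted p = 0.11) were lost, and Cebpb also with 1 age alone (adjusted p = 0.099).

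At 12 months Cebpa was 7.44, 7.46 and 7.66 ipsilaterally on day 14, against 6.64, 6.89 and 7.06 on day 3, without overlap, a change of 0.65 (SE 0.18, adjusted p = 0.0071) that was lost without replicate 1 of day 3 (0.54, adjusted p = 0.057). Irf8 was 9.30, 9.42 and 9.49 on day 14, against 9.16, 8.94 and 9.22 on day 3, also without overlap, a change of 0.29 (SE 0.10, adjusted p = 0.039). It was lost without replicate 2 (0.28, adjusted p = 0.11) or 3 (0.25, adjusted p = 0.14) of day 14, or 1 (0.32, adjusted p = 0.060) or 2 (0.21, adjusted p = 0.21) of day 3, and with median centring (0.26, adjusted p = 0.076) or the compared arrays alone (adjusted p = 0.056). Over the same step, 9 of 14 tested monocyte and macrophage markers were lower and 1 higher at 12 months, and 10 lower and none higher at 3 months; their part in these changes was not tested.

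Age without stroke was compared in sham. Irf8, Maf and Cebpa were higher at 12 months than at 3 months and none of the 8 was called lower, where 13.0% of all genes were called (7.47% higher and 5.52% lower). Cebpa was 7.68, 7.43 and 7.13 at 12 months, against 6.59, 6.74 and 6.91 at 3 months, a change of 0.67 (SE 0.18, adjusted p = 0.011). Irf8 was 9.47, 9.43 and 9.30 at 12 months, against 9.04, 8.98 and 9.01 at 3 months, a change of 0.39 (SE 0.10, adjusted p = 0.010). Maf was 9.50, 9.31 and 9.16 at 12 months, against 9.04, 8.94 and 9.04 at 3 months, a change of 0.31 (SE 0.096, adjusted p = 0.029). None of the 3 overlapped between the ages, and neither did Sall1, Spi1, Runx1 and Mitf, which were not called. The share of all genes without overlap was not counted.

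Cebpa lost its age call without 12-month sham replicate 1 (0.53, adjusted p = 0.075) or 3-month sham replicate 1 (0.59, adjusted p = 0.062). Maf lost its own without 12-month sham replicate 1 (0.23, adjusted p = 0.18) or 2 (0.32, adjusted p = 0.072), or 3-month sham replicate 1 (0.33, adjusted p = 0.060) or 2 (0.28, adjusted p = 0.12). Cebpb had the opposite sign (-0.26, SE 0.092, adjusted p = 0.063), and passed without 3-month sham replicate 3 (-0.35, adjusted p = 0.017) and under the stricter filter (adjusted p = 0.050). After quantile normalization Spi1 was called higher at 12 months (0.27, adjusted p = 0.035).

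**Figure D5:**
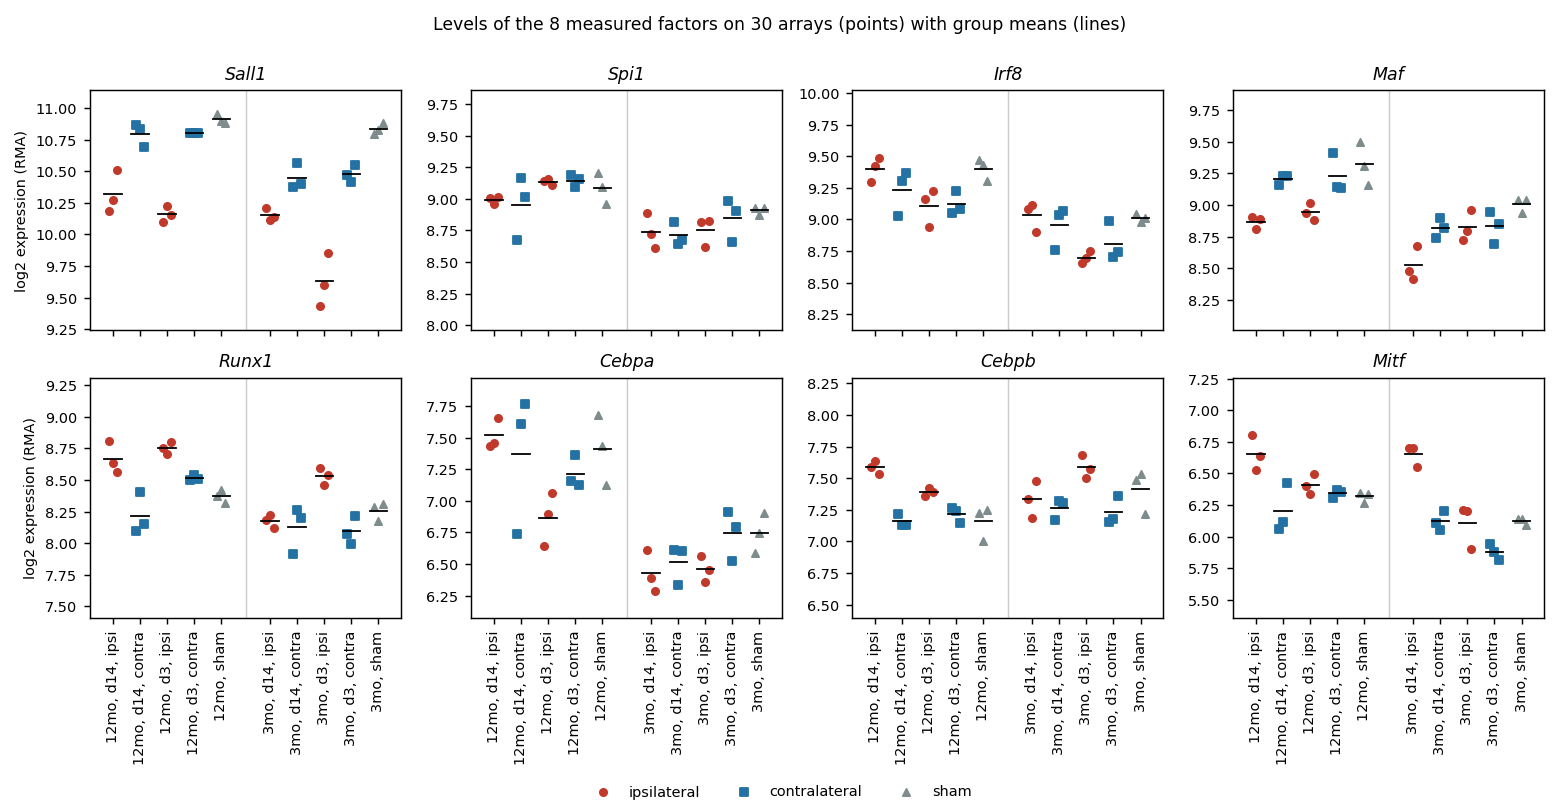
Log2 level of the 8 factors on each of the 30 arrays (points) with group means (lines), by age, day and hemisphere (x axis). Each panel spans the same log2 range around its own values, so changes can be set side by side but heights between panels cannot.

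Over the 10 groups, each factor had its own order of levels. The order of Sall1 began with the sham groups (10.91 at 12 months and 10.83 at 3 months), then came the contralateral groups of 12 months, those of 3 months and the ipsilateral groups, and it ended with ipsilateral day 3 at 3 months (9.63). Of its 9 pairs of neighbours 6 overlapped; the last step, below ipsilateral day 14 at 3 months (10.15), did not. Mitf had the ipsilateral groups of day 14 on top (6.65 at 12 months and 6.65 at 3 months), apart from the next group, ipsilateral day 3 at 12 months (6.41), and all its other neighbours overlapped. Runx1 was highest in ipsilateral day 3 at 12 months (8.75) and lowest in contralateral day 3 at 3 months (8.09), with 7 of 9 neighbour pairs overlapping. Cebpa had the 5 groups of 12 months above the 5 of 3 months, a gap between the means of 6.87 and 6.75 across which the arrays overlapped. Maf was highest in sham at 12 months (9.32) and lowest in ipsilateral day 14 at 3 months (8.52), which stood apart from its neighbour. For Irf8, Cebpb and Spi1 all 9 pairs of neighbours overlapped.

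The genes whose group means followed a factor most closely were picked by Pearson's r over the 10 group means, which share their arrays and their array spread. For Sall1 they were Il6st (0.987), a subunit of cytokine receptors, Mertk (0.987), a receptor for dying cells, and P2rx7 (0.985), an ATP-gated channel. For Mitf they were Pgap1 (0.968), Anxa7 (0.967) and Niban2 (0.961), for Runx1 Ptk2b (0.952), Usp30 (0.948) and Anapc11 (0.943), and for Maf Hrh3 (0.967), Fhl3 (0.962) and Zfp365 (0.959). Cebpb had the loosest matches, Ninj1 (0.91), Il1b (0.907) and Gltpd2 (0.884). Those of Irf8 were Agbl5 (0.978), Brd1 (0.972) and Clcn6 (0.971), of Cebpa Agfg2 (0.963), Chpf2 (0.961) and Nudt12 (0.957), and of Spi1 Bid (0.975), Dolk (0.971) and Cdipt (0.969). Between the factors themselves, Irf8 and Cebpa were closest (0.858) and Sall1 and Cebpb most opposed (-0.712).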

How the data were processed

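For each of 30 arrays the authors deposited log2 signals of 29214 probe sets. The submitters' processing notes name RMA and Affymetrix Expression Console, without versions. They were not rescaled. Probe sets took gene symbols from the platform annotation, updated through RefSeq's GRCr8 gene table; 15310 had 1 symbol, 323 had several and 13581 were not listed. Probe sets above the array's 30th percentile (4.07 to 4.35) on at least 3 arrays were kept, with 1 probe set per gene. limma 3.58.1 (R 4.3.3; lmFit and eBayes, 20 residual and 8.8 prior degrees of freedom) fitted 10 group means over 30 arrays; p-values were adjusted over 11675 genes in each of 21 comparisons. The fit was tested on simulated data. Tables and plots used Python 3.11.15, pandas 2.3.3 and matplotlib 3.10.9. A group with all 3 arrays at or below their 30th percentile gave a bound.

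Ipsilateral and contralateral samples of 1 replicate number come from 1 animal by the sample codes; their deviations correlated at -0.079 to 0.21 over 12 pairs (duplicateCorrelation 0.072), and no block was used in the reported values. Alternatives were no filter or a stricter one, averaged probe sets, quantile normalization, median centring, an intensity trend, fewer arrays in the fit, each array left out, and animal blocks. All factors are named. Of the linked genes, those with the 2 largest rises and falls among those called are named. Further values are given for some family factors and for Cd163, Mrc1 and Csf1r. The 3 genes most alike each factor by Pearson's r are given. The factors and lists were chosen with earlier results of these data known. The number of arrays limits the precision. No 2 arrays were identical.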

Additional observations from a re-analysis of the deposited data

Results flagged for a closer look

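The change of Sall1 between the hemispheres differed between the days at 3 months: the hemisphere effect on day 14 minus that on day 3 was 0.557 on the log2 scale (SE 0.13, limma adjusted p = 0.012), from effects of -0.30 on day 14 and -0.85 on day 3. A test of the difference itself drew attention to it. All 3 animals of each day had lower Sall1 ipsilaterally, by 0.17 to 0.45 on day 14 and 0.70 to 1.04 on day 3. The day groups carry different code numbers, but the hemispheres of a day share theirs.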

How the results depend on the processing

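Of the 13 hemisphere calls, 9 were made in all 40 alternatives, and the other 4 (Maf in 3 comparisons and Sall1 at 3 months and day 14) in 33 to 39 of them. Most of the 40 leave out 1 array, often from outside the compared groups, where the change itself stays unmoved. The count of hemisphere calls was 11 to 14 with 1 array left out, 14 with the animal as a random replicate block and 12 as a fixed one, which changed only the calls of Runx1 and Sall1 given above. The blocks changed no other count. Median centring gave 11 hemisphere calls, 7 higher and 4 lower, against 6 and 7 as deposited, and arrays of 1 age alone 12, 7 and 5. With 1 array left out, the counts were 14 to 17 against sham ipsilaterally, 2 to 5 contralaterally, 5 to 9 between days, 1 to 2 for differences of hemisphere effects and 1 to 4 for age. The difference count of 1 was 0 after quantile normalization, 0 with the compared arrays alone and 0 with 1 age alone. The contralateral count of 3 was 9 with median centring, all lower, and 2 after quantile normalization, both higher. The day count of 8 was 5 with the compared arrays alone, 4 higher and 1 lower, against 5 and 3. Fewer arrays leave fewer residual degrees of freedom; for the scalings the cause was not tested. After quantile normalization 19 of the 32 changes from sham at 3 months, and 2 of 32 at 12 months, had the other sign; 3 of these were called before or after it, all at 3 months and day 3: Irf8 ipsilateral minus sham (0.027) and Spi1 (0.31) and Runx1 (0.23) contralateral minus sham. With 3 arrays per group, changes under about 0.2 could not be called. Larger ones could also go uncalled, above all where the SE was larger, as for Cebpa and for differences of hemisphere effects.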

Other observations

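In the injured hemisphere, genes linked to the factors also changed between the days. Of 20 tested lysosome genes, 7 were higher and 2 lower on day 14 than on day 3 at 12 months (median 0.13), and 13 were higher and none lower at 3 months (median 0.32). Resting-state genes linked to Sall1 and Mef2c were higher for 6 and lower for 3 of 22 at 12 months and higher for 8 and lower for none at 3 months. Family and partner factors were higher for 12 and lower for 2 of 30 at 12 months and higher for 13 and lower for 3 at 3 months. C/EBP-linked genes were higher for 2 and lower for 5 of 18 at 12 months and higher for 1 and lower for 7 at 3 months, and MAF-linked genes were higher for none and lower for 6 of 14 at 12 months and higher for 2 and lower for 8 at 3 months. Of all tested genes, 6.53% were higher and 14.1% lower at 12 months, and 22.0% higher and 7.51% lower at 3 months. At 3 months the median change of the brighter genes was 0.12 in the same comparison. Border macrophage markers, 5 of which the MAF list shares, were lower for 5 of 6 at 12 months and 6 of 6 at 3 months, and their part in these counts was not tested.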
